A study of Mus musculus with 12 samples.

Results

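The machinery that copies and transcribes mitochondrial DNA (mtDNA) was followed through 10 nuclear genes, *Polg*, *Polg2*, *Ssbp1*, *Mgme1*, *Rnaseh1*, *Top1mt*, *Polrmt*, *Tfam*, *Tfb1m* and *Tfb2m*, which were taken by name from the count table. All 10 had a row among the 24453 genes of the deposited count table, and all 10 were among the 14026 genes that passed the filter on low counts. Expression was read in 12 RNA-Seq libraries, 3 cultures for each of 4 mouse embryonic fibroblast (MEF) lines, all of them C57BL6/J cells that carry the floxed *Pnpt1* allele (Pnpt1 fl/fl, labelled neo-flox/neo-flox) and were immortalized with SV40 large T-antigen. TM6 is the parental line, untreated and grown with 50 µg/mL uridine. The rho0 line is a single-cell colony of TM6 cells cultured for 3 weeks with uridine and 750 ng/mL ditercalinium, a DNA intercalator that depletes mtDNA. PKO-1 and PKO-6 are single-cell colonies of TM6 cells that received a Cre adenovirus in medium with uridine; Cre removes part of exon 2 of *Pnpt1*, the gene for the mitochondrial exoribonuclease PNPase. The study describes rho0 and PKO cells as lacking mtDNA, so the comparisons ask at what level cells express this machinery once its template is gone. Since each derived line is 1 clone, the effect of a treatment and the history of a clone cannot be told apart, and the tests below measure the spread between cultures of a line.

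mtDNA is a small circular genome whose replication proteins are all encoded in the nucleus and imported. A dedicated polymerase, made of the catalytic subunit Polg and the accessory subunit Polg2, extends RNA primers while Ssbp1 coats the displaced single strand, and Rnaseh1, Mgme1 and the topoisomerase Top1mt remove primers, trim flaps and relieve torsion. Those primers are made by Polrmt, the mitochondrial RNA polymerase, which starts at its promoters together with Tfam and Tfb2m, so that transcription and replication share their first step. Tfam also packages mtDNA into nucleoids, and Tfb1m, a relative of Tfb2m, methylates the small ribosomal RNA of mitochondria.

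Several of these genes are textbook targets of the ETS factor GABP (nuclear respiratory factor 2) and of NRF1, so their promoters were searched on both strands for an ETS string and for the palindromic NRF1 consensus, in the 250 bases before the annotated start. Of the 10 genes, 8 had a promoter entry in RefSeq (GRCm38.p6, the build of the deposited files). The ETS string CCGGAAG occurred in 5 of these 8 windows and in 6.91% of 32851 promoter windows of the same length, whereas the NRF1 consensus occurred in 0 of the 8 and in 3.74% of all windows. The 5 matches are printed with 10 bases on either side, 5′ to 3′ on the strand of the gene, with the match in capitals. They are shown because the positions are alike, all between 47 and 23 bases before the start.
Polg, chr7:79466295-79466321, minus strand: aggacctcacCCGGAAGtccctctgca
Polg2, chr11:106779550-106779576, minus strand: gggtgacgctCTTCCGGgggcgtggtc
Ssbp1, chr6:40471411-40471437, plus strand: gctccgtgcgCCGGAAGcgagccgctg
Polrmt, chr10:79746608-79746634, minus strand: cctaagagcgCTTCCGGcagtcgcaga
Tfam, chr10:71238075-71238101, minus strand: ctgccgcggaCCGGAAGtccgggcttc
In *Polg2* and *Polrmt* the string lies on the opposite strand and is printed as its reverse complement. No match was present in the windows of *Mgme1*, *Tfb1m* and *Tfb2m*, which says only that these letters are not there. *Rnaseh1* and *Top1mt* had no entry. The stretch of *Ssbp1* overlaps the start of another of its listed transcripts. A match describes letters and not a bound site.

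The libraries held 47164860 to 67991378 estimated counts each, with 3 per line. From 12.2% (PKO-6 replicate 3) to 19.6% (rho0 replicate 1) of these counts fell on the single entry *Rn45s*. At this depth the least expressed of the genes, *Polg2*, still had 99 to 224 estimated counts per library. *Pnpt1* was read first as a check of the labels. Its normalized counts (counts scaled to a common library size) were 2832, 3242 and 3319 for TM6, 5051, 5251 and 5510 for rho0, 1254, 1191 and 1276 for PKO-1, and 1897, 1720 and 2214 for PKO-6. Both knockout clones lay under every TM6 library and the counts cover the whole gene, of which Cre removes part of 1 exon. All 10 fibroblast markers had a row. Their levels were summed in TPM (a level corrected for transcript length and scaled to the library). The sum was 4270 to 4530 TPM in TM6, 3200 to 3270 in rho0, 4140 to 4320 in PKO-1 and 2380 to 2590 in PKO-6. *Lum* was at 0 in rho0 and *Thy1* at 0 in PKO-6, but their TM6 means were only 7.7 and 2.8 normalized counts. By the thresholds given below, 1 of 9 tested markers was called higher than TM6 and 7 lower in rho0. The counts were 5 and 2 in PKO-1, and 2 and 5 in PKO-6. Of all tested genes, 42.1%, 34.3% and 41.3% were called in either direction. Markers of other cell types had low sums, 2.26 to 6.14 TPM for 4 macrophage, 0.12 to 1.21 for 4 skeletal muscle and 0.08 to 0.89 for 4 endothelial genes. *Adgre1* and *Myog* were at 0 in every library. For 5 epithelial genes the sum differed between lines. It was 6.22 to 6.55 TPM in TM6, 10.2 to 11.7 in rho0, 19.2 to 20.2 in PKO-1 and 1.74 to 2.08 in PKO-6. The part of these shifts in the results below was not tested. A search of the gene names for the prefix mt- gave 0 entries. Genes on mtDNA listed under other names were not searched for, and transcripts of the template were not analysed here.

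Against TM6, 4 of the 10 genes were called higher in each derived line and 0 were called lower, and the lists of 4 differed. A list can differ because a value lies just short of a threshold. Direct tests between the derived lines, given below, called *Top1mt* alone. A gene was called when the edgeR quasi-likelihood test gave a Benjamini-Hochberg adjusted p below 0.01 over all tested genes and a log2 fold change beyond 0.5, the thresholds of the study. *Mgme1*, *Rnaseh1*, *Ssbp1* and *Tfb1m* were called higher in rho0, where 20.7% of all tested genes were called higher, 21.4% lower and 42.1% in either direction. In PKO-1 the 4 were *Rnaseh1*, *Ssbp1*, *Tfb1m* and *Tfb2m*, beside 16.4% of all genes called higher, 17.9% lower and 34.3% in either direction. In PKO-6 they were *Mgme1*, *Rnaseh1*, *Top1mt* and *Tfb1m*, beside 21.9% called higher, 19.4% lower and 41.3% in either direction. The share of the 10 genes called was thus near the background in either direction, while the calls went one way. *Rnaseh1* and *Tfb1m* were called higher in all 3 derived lines, as were 8.28% of all tested genes. The study, which pooled the clones, instead placed *Rnaseh1* among genes changed in rho0 and not in PKO cells. With the clones pooled here, *Rnaseh1* in PKO cells against TM6 was 0.68 (edgeR adjusted p = 9.16e-06) and still called. The reason for this difference from the study was not tested. *Polg*, *Polg2*, *Polrmt* and *Tfam* were called in none of the 3, as were 39.5% of all tested genes. Of genes with a negative fold change, 2 of the 10 reached an unadjusted p below 0.05 in each of the 3 comparisons, and DESeq2 called 0, 0 and 1 gene lower in rho0, PKO-1 and PKO-6, the 1 being *Polg2*.

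The median log2 fold change of the 10 genes was 0.33 in rho0, 0.19 in PKO-1 and 0.35 in PKO-6, beside medians of 0.02, 0.00 and 0.01 over all tested genes. The median size of the change regardless of sign, however, was 0.38, 0.30 and 0.46, against 0.48, 0.39 and 0.46 over all genes. Libraries of the derived line and of TM6 did not overlap for 8 genes in rho0, 8 in PKO-1 and 9 in PKO-6, while 72.8%, 71.8% and 71.9% of all tested genes did not overlap in the same comparisons. The 3 comparisons share the TM6 libraries, so they are set side by side and not counted as repeats of each other. In such bulk libraries, a change in the share of cells that express a gene and a change in RNA per cell cannot be told apart.

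**Figure D1:**
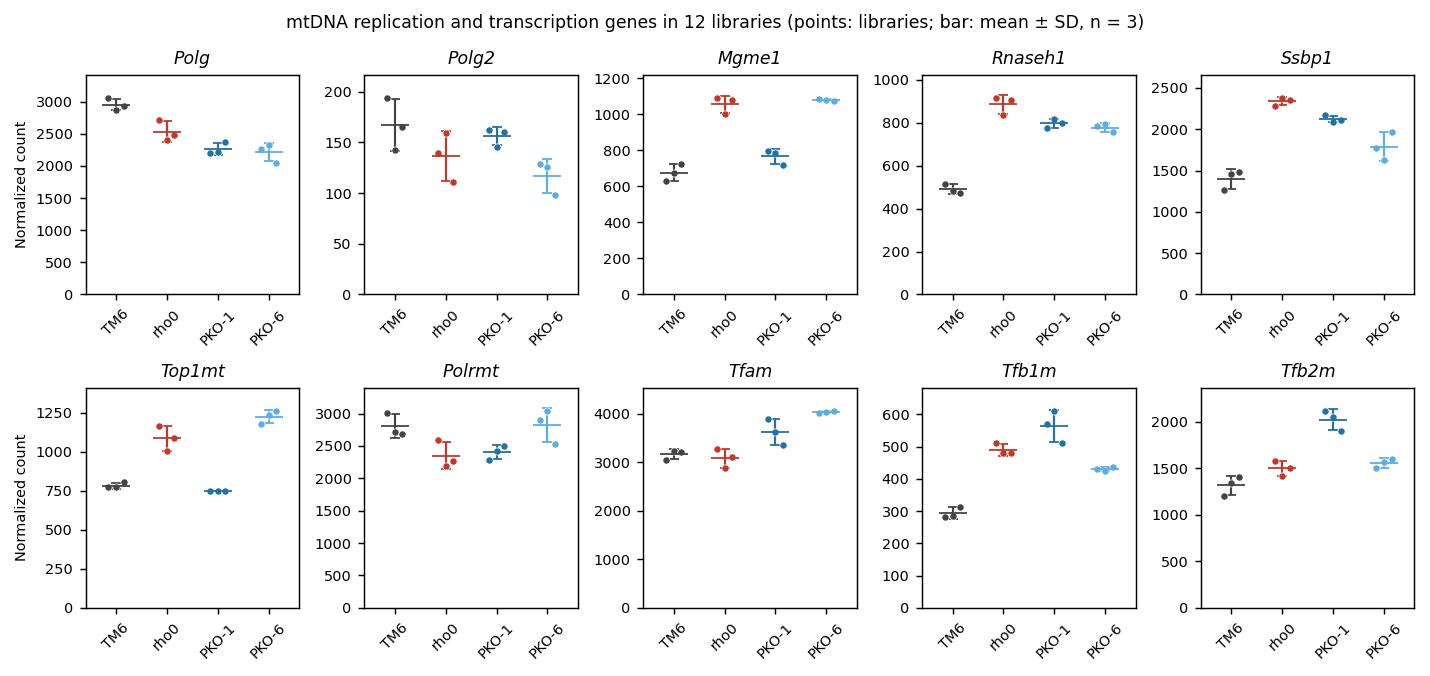
Normalized count (y axis, from 0) of each of the 10 genes in the 12 libraries, grouped by line on the x axis; points are libraries, and bars give the mean ± SD of 3 libraries. *Rnaseh1* and *Tfb1m* lie above every TM6 library in all 3 derived lines, *Top1mt* is low in TM6 and PKO-1 and high in rho0 and PKO-6, and *Polg* is highest in TM6.

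The catalytic subunit of the polymerase was lower than the parent in every derived library, with a mean difference under the threshold on fold. *Polg* (chromosome 7, 79449383 to 79466273, minus strand), the catalytic subunit, held 3057, 2876 and 2937 normalized counts in TM6 cultures, 2723, 2402 and 2481 in rho0, 2209, 2224 and 2374 in PKO-1 and 2265, 2328 and 2054 in PKO-6. Every library of the 3 derived lines lay below every TM6 library. Of all tested genes, 72.8%, 71.8% and 71.9% did not overlap TM6 in rho0, PKO-1 and PKO-6, in either direction. The share apart from TM6 in all 3 lines was not counted. The log2 fold changes were -0.22 in rho0, -0.38 in PKO-1 and -0.42 in PKO-6 (edgeR adjusted p = 0.00533, 9.61e-05 and 3.42e-05), which passed the threshold on p but not the one on fold, and so *Polg* was not called. *Polg2* (chromosome 11, 106768204 to 106779537, minus strand), the accessory subunit that gives the polymerase its grip on DNA, was the scarcest of the 10, with means of 167 ± 25.7, 136.5 ± 24.6, 156 ± 8.81 and 117 ± 16.8 normalized counts (SD, n = 3) in TM6, rho0, PKO-1 and PKO-6. Its spread of up to 18.0% of the mean was the widest of the 10 genes. In PKO-6 the log2 fold change was -0.51 (SE 0.16, edgeR adjusted p = 0.0112), outside the threshold on p, and it was called under 8 of 22 alternative settings. Exons of *Polg* overlap those of *Fanci* on the other strand over 398 of 4596 bases, and those of *Polg2* overlap *Milr1* over 70 of 1577. The libraries were stranded, but the strand setting of the counting is not given in the sources used here, so reads from those stretches may come from either gene.

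*Ssbp1* (chromosome 6, 40471415 to 40481823, plus strand), the single-strand binding protein of the replication fork, rose in rho0 and in PKO-1. Its normalized counts were 1261, 1453 and 1486 in TM6, 2284, 2377 and 2359 in rho0, 2168, 2089 and 2114 in PKO-1 and 1771, 1626 and 1970 in PKO-6. The derived lines all lay above TM6, in the order rho0, PKO-1, PKO-6, with no overlap between neighbours in that order. Between PKO-1 and rho0, 69.5% of all tested genes did not overlap, and between the clones 66.5%. *Ssbp1* in PKO-1 against rho0 was -0.14 (edgeR adjusted p = 0.103). The log2 fold changes against TM6 were 0.74 in rho0 (SE 0.073, edgeR adjusted p = 6.77e-07) and 0.60 in PKO-1 (SE 0.073, adjusted p = 6.92e-06). In PKO-6 the value was 0.36 (adjusted p = 0.000623), under the threshold on fold. With both clones pooled into 1 group, the study's own design, the value for PKO cells against TM6 was 0.48 and not called.

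*Mgme1* (chromosome 2, 144270904 to 144281227, plus strand) encodes the exonuclease that trims the ends of newly copied strands. Normalized counts were 629, 675 and 725 in TM6, 1089, 1001 and 1076 in rho0, 795, 784 and 719.8 in PKO-1 and 1086, 1080 and 1073 in PKO-6. The libraries of rho0 and PKO-6 stood together, the lowest at 1001, while the ranges of PKO-1 and TM6 overlapped. *Mgme1* rose in rho0 (log2 fold change 0.64, SE 0.069, edgeR adjusted p = 1.64e-06) and in PKO-6 (0.68, SE 0.069, adjusted p = 9.07e-07). In PKO-1 the value was 0.18 (adjusted p = 0.0359), and with the clones pooled it was 0.45 (adjusted p = 0.024), so the call for PKO-6 was lost.

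*Top1mt* (chromosome 15, 75657033 to 75678790, minus strand), the topoisomerase of mitochondria, split the 2 knockout clones. TM6 held 772, 771 and 805 normalized counts, rho0 1167, 1007 and 1085, PKO-1 746, 749 and 749.8, and PKO-6 1178, 1238 and 1258. PKO-1 lay just under TM6 with no overlap, and rho0 and PKO-6 lay well above both. Against TM6 *Top1mt* rose in PKO-6 (log2 fold change 0.65, SE 0.063, edgeR adjusted p = 5.9e-07), a call that was lost with the clones pooled (0.33, adjusted p = 0.176). The value in rho0 was 0.47 (SE 0.063, adjusted p = 1.4e-05), just inside the threshold on fold and not called, but called at 0.50 without rho0 replicate 2. In PKO-1 it was -0.06 (adjusted p = 0.397).

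*Rnaseh1* (chromosome 12, 28649602 to 28659591, plus strand) encodes the nuclease that degrades the RNA of RNA-DNA hybrids, including the primers of mtDNA, and the same gene also yields a nuclear form. Normalized counts of 516, 480.5 and 475 were found in TM6, 914, 834 and 906 in rho0, 776, 818 and 799 in PKO-1 and 784.5, 792 and 754 in PKO-6. All 9 derived libraries lay above all 3 TM6 libraries, and the ranges of PKO-1 and PKO-6 overlapped. Such a gap from TM6 was common over all tested genes, with the shares given for *Polg*. The log2 fold changes were 0.85 in rho0 (SE 0.067), 0.70 in PKO-1 (SE 0.067) and 0.66 in PKO-6 (SE 0.067), with edgeR adjusted p of 7.13e-08, 6.88e-07 and 8.4e-07. Its chromosome, however, was higher as a whole in the same lines: the median log2 fold change of the 491 tested genes on chromosome 12 was 0.55 in rho0, 0.56 in PKO-1 and 0.53 in PKO-6, and 48.9%, 51.7% and 47.5% of them were called higher. With chromosome medians removed, *Rnaseh1* had 0.30 (edgeR adjusted p = 0.00124), 0.14 (adjusted p = 0.0809) and 0.13 (adjusted p = 0.101), and none was called.

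Among the transcription genes, the polymerase *Polrmt* and the packaging factor *Tfam* were not called in any derived line, whereas both methyltransferase relatives were called in at least 1. *Polrmt* (chromosome 10, 79736125 to 79746581, minus strand) ranged from 2684 to 3014 normalized counts in TM6, from 2188 to 2589 in rho0, from 2282 to 2498 in PKO-1 and from 2532 to 3033 in PKO-6. Rho0 and PKO-1 lay under TM6 with log2 fold changes of -0.26 and -0.22 (edgeR adjusted p = 0.0102 and 0.0235), and PKO-6 overlapped TM6 with 0.01 (adjusted p = 0.94), a value whose sign changed under 13 of 22 alternatives. *Tfam* (chromosome 10, 71225477 to 71238044, minus strand), whose protein amount usually follows that of mtDNA, reached 3048, 3234 and 3216 normalized counts in TM6 cultures, 3266, 2875 and 3102 in rho0, 3890, 3624 and 3348 in PKO-1 and 4005, 4023 and 4045 in PKO-6. Rho0 overlapped TM6, and both knockout clones lay above it. The log2 fold changes of *Tfam* were -0.04 in rho0 (adjusted p = 0.583), 0.19 in PKO-1 (adjusted p = 0.0128) and 0.35 in PKO-6 (adjusted p = 0.000163), all within the threshold on fold.

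*Tfb2m* (chromosome 1, 179528056 to 179546267, minus strand), the factor that opens the promoter for Polrmt, rose in PKO-1. Its libraries held 1199, 1340 and 1403 normalized counts for TM6, 1574, 1416 and 1505 in rho0, 2109, 2054 and 1898 in PKO-1 and 1496, 1570 and 1597 in PKO-6. PKO-1 stood above every other library, and rho0 and PKO-6 overlapped each other a little above TM6. The log2 fold change in PKO-1 was 0.62 (SE 0.067, edgeR adjusted p = 2.24e-06), and the call was lost with pooled clones (0.44) and with chromosome medians removed (0.44). In rho0 and PKO-6 the values were 0.19 (adjusted p = 0.0215) and 0.24 (adjusted p = 0.00539).

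*Tfb1m* (chromosome 17, 3519256 to 3557713, minus strand), which marks the ribosomal RNA made from mtDNA, held the largest fold change of the 10 genes. Its libraries held 283, 286 and 314 normalized counts for TM6, 510.5, 479 and 479 in rho0, 571, 609 and 511 in PKO-1 and 431, 425 and 435 in PKO-6. All derived libraries lay above TM6, with PKO-1 highest, rho0 next and PKO-6 lowest. The lines did not overlap, but the nearest libraries of PKO-1 and rho0 held 510.9 and 510.5. Against rho0, 69.5% of all tested genes did not overlap in PKO-1 and 56.7% in PKO-6. *Tfb1m* against rho0 was 0.20 in PKO-1 (edgeR adjusted p = 0.0447) and -0.19 in PKO-6 (adjusted p = 0.0749). The log2 fold changes against TM6 were 0.94 in PKO-1 (SE 0.085), 0.74 in rho0 (SE 0.085) and 0.55 in PKO-6 (SE 0.085), with edgeR adjusted p of 3.82e-07, 3.39e-06 and 5.28e-05. The call in PKO-6 was lost without TM6 replicate 1 (0.49). The median change on chromosome 17 was 0.25 in rho0, 0.20 in PKO-1 and 0.19 in PKO-6, and with it removed the values were 0.48, 0.74 and 0.36, of which PKO-1 alone was called. Exons of *Tfb1m* overlap *Tiam2* on the other strand over 142 of 1334 bases, with the same limit as for *Polg*.

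**Figure D2:**
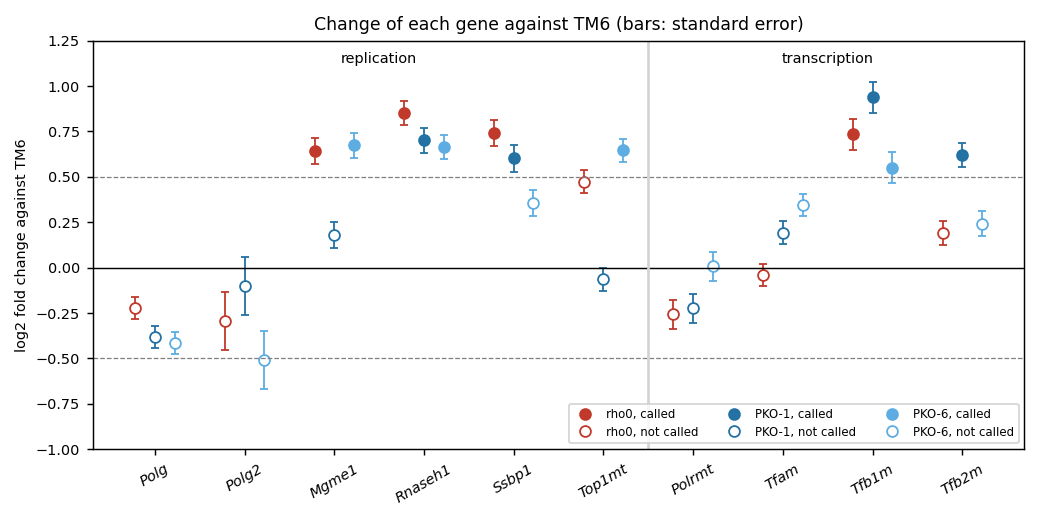
Log2 fold change of each gene against TM6 (y axis) in rho0, PKO-1 and PKO-6, with the standard error; filled points were called, open points were not, and dashed lines mark the threshold of 0.5. No filled point lies below 0, and *Rnaseh1* and *Tfb1m* alone are filled in all 3 lines.

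The 3 derived lines were also compared with each other, which asks whether knockout clones and the chemically made rho0 line hold the same levels. Between PKO-1 and PKO-6, 8 of the 10 genes had an unadjusted p below 0.05. Of the 10, 1 was called, beside 29.1% of all tested genes. That gene was *Top1mt*, lower in PKO-1 as were 17.6% of all genes, with a log2 fold change of -0.71 (SE 0.064, edgeR adjusted p = 4.19e-07). *Mgme1*, whose libraries were also apart, had -0.50 (SE 0.069, adjusted p = 2.87e-05), just short of the fold threshold, and it was called under 7 of 21 alternatives, 1 of which drops that threshold. Libraries of the clones did not overlap for 8 of the 10 genes, beside 66.5% of all genes. The largest differences in the other direction were 0.41 for *Polg2* (adjusted p = 0.042), 0.39 for *Tfb1m* (adjusted p = 0.0011) and 0.38 for *Tfb2m* (adjusted p = 0.000238), none of them called.

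Against rho0, PKO-1 was again called for *Top1mt* alone, with -0.54 (SE 0.064, edgeR adjusted p = 6.52e-06), beside 32.7% of all tested genes called and 17.6% called lower. This call was lost without rho0 replicate 1, where the value was -0.4996, and 2 genes were called without rho0 replicate 2, *Mgme1* being the other. With all libraries, *Mgme1* had -0.46 (adjusted p = 5.56e-05) and *Tfb2m* 0.43 (adjusted p = 8.06e-05), both short of the fold threshold. In PKO-1 against rho0, 7 of the 10 genes had an unadjusted p below 0.05. PKO-6 against rho0 gave 0 called genes by edgeR and 0 by DESeq2, beside 21.5% of all tested genes, while 7 of the 10 had an unadjusted p below 0.05. The largest values there were -0.39 for *Ssbp1* (adjusted p = 0.000525) and 0.39 for *Tfam* (adjusted p = 0.000134). Libraries did not overlap for 8 genes in PKO-1 and 6 in PKO-6 against rho0, beside 69.5% and 56.7% of all genes. The median size of the change over the 10 genes was 0.31 between the clones, 0.20 for PKO-1 and 0.19 for PKO-6 against rho0, while the medians over all genes were 0.34, 0.39 and 0.29.

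The position of each gene was described because whole chromosomes differed between the lines. Chromosome 15, which carries *Top1mt*, had medians of -0.38 in rho0, -0.23 in PKO-1 and -0.09 in PKO-6, opposite in sign to the change of *Top1mt* in rho0 and PKO-6. Removing them gave *Top1mt* 0.85 in rho0 (edgeR adjusted p = 4.63e-08), 0.17 in PKO-1 (adjusted p = 0.0363) and 0.74 in PKO-6 (adjusted p = 1.68e-07), so that rho0 was then called, and left the gap between the clones at -0.57. The 5 tested genes on either side of *Top1mt* had medians of -0.36, -0.55 and -0.19. *Mgme1* kept its calls with 0.68 in rho0 and 0.77 in PKO-6, where chromosome 2 had medians of -0.04 and -0.09. *Ssbp1* had 0.59 in rho0, still called, and 0.39 in PKO-1, no longer called, with chromosome 6 at 0.15 and 0.21. The 10 nearest tested genes of *Mgme1* had medians of 0.28, 0.08 and 0.26 in rho0, PKO-1 and PKO-6. Those of *Ssbp1* had 0.45, 0.32 and 0.48, while *Ssbp1* itself was at 0.74, 0.60 and 0.36. For *Tfam*, the 10 nearest tested genes had medians of -0.79 in rho0, -0.63 in PKO-1 and -0.78 in PKO-6, and 6 of the 10 were called lower in each line, while *Tfam* itself was at -0.04, 0.19 and 0.35. Around *Polrmt*, on the same chromosome, 1, 1 and 2 of 10 neighbours had a positive value. With chromosome medians removed, *Polrmt* had -0.08 in rho0 (edgeR adjusted p = 0.386) and -0.05 in PKO-1 (adjusted p = 0.577). *Polg* then had -0.36, -0.4999 and -0.39 in rho0, PKO-1 and PKO-6, none of them called. Gene dosage was not measured, and its part in these values was not tested.

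**Figure D3:**
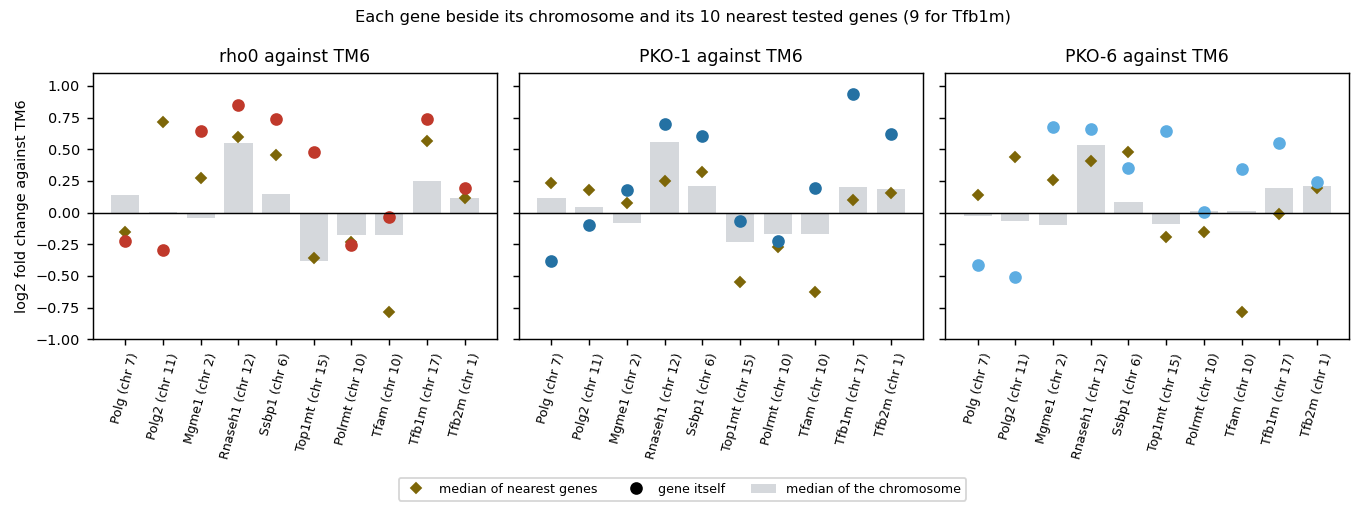
Log2 fold change against TM6 (y axis) of each gene (circle), the median of all tested genes on its chromosome (grey bar) and the median of its nearest tested genes, 5 on either side where the chromosome has them (diamond), in each derived line. The circle of *Rnaseh1* stands little above its grey bar in PKO-1 and PKO-6, while those of *Top1mt* and *Mgme1* in rho0 and PKO-6 point away from theirs.

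Levels were compared between genes in TPM, which corrects for transcript length. *Ssbp1* was the most abundant of the 10 in every line, with means of 33.7 ± 2.25 TPM for TM6, 54.2 ± 4.48 for rho0, 49.9 ± 2.27 for PKO-1 and, with the widest spread, 41.8 ± 7.23 for PKO-6 (SD over 3 libraries). *Tfam* came second in every line, between 24.6 and 31.5 TPM on average, and *Polg2* last, between 2.52 and 3.67. In TM6 the order between them was *Polrmt* (23.8), *Polg* (20.3), *Tfb2m* (17.6), *Top1mt* (13.9), *Rnaseh1* (11.7), *Tfb1m* (7.75) and *Mgme1* (7.63). Among neighbours in this order, *Tfam* and *Polrmt*, and *Tfb1m* and *Mgme1*, had overlapping libraries in TM6 and the other pairs did not. *Polg* moved from rank 4 in TM6 to rank 7 in rho0, 6 in PKO-1 and 7 in PKO-6, and *Rnaseh1* from rank 7 to 3, 5 and 6. In rho0 the levels of *Rnaseh1*, *Tfb2m*, *Polrmt* and *Top1mt* lay within 18.9 to 20.7 TPM on average and overlapped between neighbours. The catalytic subunit of the polymerase was thus listed at 20.3 TPM and its accessory subunit at 3.67 in TM6, and at 14.6 and 2.52 in PKO-6.

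Transcript shares were estimated by the authors' software within each gene. *Polg*, *Top1mt*, *Polrmt*, *Tfam*, *Tfb1m* and *Tfb2m* had 1 listed transcript each, so their values carry no isoform choice. *Ssbp1* had 4, of which the transcript with 7 exons (NM_212468.3) made up 43.9% ± 4.90 of the total for TM6, 27.8% ± 9.86 for rho0, 49.9% ± 7.04 for PKO-1, while PKO-6 had 41.3% ± 5.41 (SD over 3 libraries). The rho0 libraries spread from 18.4% to 38.1%, all of them under the 38.8% of the lowest TM6 library, and the level of this transcript was 14.8 TPM on average in rho0 and in TM6. The other listed transcripts of *Ssbp1* have 6 exons. Of these, NM_028358.2 was at 22.1 TPM in rho0 and 11.5 in TM6. NM_001286663.1 and NM_001286664.1 were given equal values, each at 8.63 TPM in rho0 and 3.64 in TM6, so they could not be separated. *Mgme1* was mostly NM_028984.5, at 57.4% ± 11.2 in TM6, 66.7% ± 4.73 in rho0, 61.4% ± 5.56 in PKO-1 and 71.4% ± 2.21 in PKO-6. For *Polg2* the non-coding transcript NR_027785.1 held 7.87% ± 6.81 in TM6, 22.5% ± 8.74 in rho0, 27.6% ± 12.8 in PKO-1 and 29.4% ± 2.23 in PKO-6. All 9 derived libraries lay above all TM6 libraries in that share, but the counts behind it were few, from 0 to 23.9 estimated counts in TM6 and from 16.9 to 55.7 elsewhere. The 2 main transcripts of *Rnaseh1* were given equal shares in all 12 libraries, so its forms could not be separated. These shares were not tested.

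**Figure D4:**
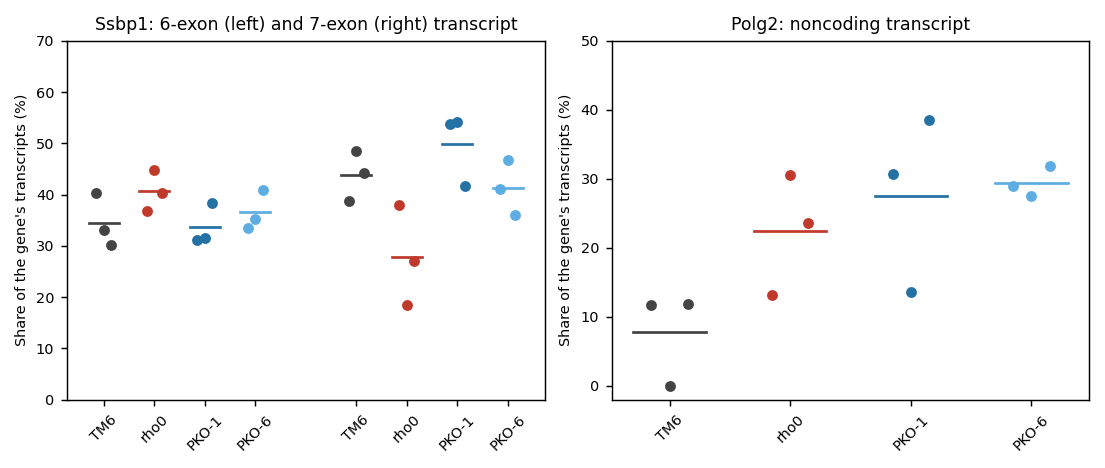
Share of the transcripts of *Ssbp1* (left, NM_028358.2, not the only transcript with 6 exons, and the 7-exon NM_212468.3) and of *Polg2* (right, the non-coding NR_027785.1) in percent (y axis) by line. Points are libraries and lines are means of 3. The 7-exon transcript of *Ssbp1* is lowest in rho0, at 27.8% on average, and the non-coding transcript of *Polg2* is lowest in TM6, at 7.87%.

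Partners of the replication fork outside the 10 genes gave few calls. Of 7 accessory genes (helicase, primase, flap nucleases, ligase and topoisomerase), 1 was called higher and 1 lower in rho0, 1 higher in PKO-1 and 2 higher in PKO-6, beside the shares of all genes given above. *Primpol*, a primase-polymerase that restarts stalled forks, rose in all 3 lines, from 500.2 ± 29.8 normalized counts in TM6 to 1476 ± 124 in rho0, 848 ± 42.8 in PKO-1 and 1058 ± 78.0 in PKO-6 (log2 fold changes 1.56, 0.76 and 1.08, edgeR adjusted p = 1.1e-09, 2.14e-06 and 3.85e-08). *Twnk*, the mtDNA helicase, listed under its older symbol *Peo1*, rose in PKO-6 (0.59, adjusted p = 2.71e-07) and had 0.49 in rho0 and 0.20 in PKO-1. *Fen1*, a flap nuclease shared with the nucleus, fell in rho0 (-0.61, adjusted p = 1.28e-05).

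Of 7 transcription partners, *Mterf3*, a repressor of mitochondrial transcription, rose in rho0 (0.57, edgeR adjusted p = 6.8e-07) and *Mterf1a*, a terminator whose near copy *Mterf1b* can share its reads, rose in PKO-1 (0.73, adjusted p = 0.000329). In PKO-6, edgeR and DESeq2 both called 0 of the 7, with 5 higher and 1 lower at an unadjusted p below 0.05 and a median of 0.37, while 41.3% of all tested genes were called. Of 6 nucleoid genes, 1 was called higher in each line, near the 20.7%, 16.4% and 21.9% of all tested genes called higher, and 1 was called lower in rho0. *Lonp1*, the matrix protease that degrades Tfam not bound to DNA, rose in all 3 lines, from 8566 ± 88.6 normalized counts to 35500 ± 2500 in rho0, 12490 ± 410 in PKO-1 and 27510 ± 1030 in PKO-6 (log2 fold changes 2.05, 0.54 and 1.68, edgeR adjusted p = 4.56e-12, 2.31e-06 and 1.85e-11). *Phb*, an inner membrane scaffold, fell in rho0 (-0.56, adjusted p = 0.000403). The changes of *Lonp1* in rho0 and PKO-6 were larger than that of any of the 10 genes.

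The base excision repair genes that serve mtDNA moved in both directions. Of 9, 4 were called higher and 2 lower in rho0, 1 and 1 in PKO-1, and 2 and 3 in PKO-6, beside 42.1%, 34.3% and 41.3% of all tested genes called in either direction. *Ung*, which removes uracil, fell in all 3 lines (-0.79, -0.74 and -0.87, edgeR adjusted p = 5.41e-06, 1.27e-05 and 1.9e-06), and *Ogg1*, which removes oxidized guanine, rose in all 3 (0.71, 0.64 and 0.59, adjusted p = 5.7e-06, 2.08e-05 and 3.28e-05). *Tdp1*, which clears topoisomerase stuck to DNA, rose in rho0 (0.76, adjusted p = 6.65e-08). *Neil1*, another oxidized-base glycosylase, had 80.9 ± 7.54 normalized counts in TM6, 135 ± 0.267 in rho0, 67.7 ± 2.68 in PKO-1 and 24.8 ± 7.91 in PKO-6, which was a rise in rho0 (0.74, adjusted p = 0.00127) and a fall in PKO-6 (-1.71, adjusted p = 2.6e-06).

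Of 7 nuclear regulators of the pathway, 2 were called higher in rho0, 3 in PKO-1 and 3 in PKO-6, beside 20.7%, 16.4% and 21.9% of all tested genes. EdgeR and DESeq2 called 0 of them lower in each line and 0 were lower at an unadjusted p below 0.05. *Ppargc1b*, a coactivator of mitochondrial genes, had 109 ± 17.9, 168 ± 11.9, 205 ± 2.77 and 399 ± 15.2 normalized counts in TM6, rho0, PKO-1 and PKO-6 and rose in all 3 derived lines (0.62, 0.91 and 1.87, edgeR adjusted p = 0.000384, 1.5e-05 and 5.56e-09). Its relative *Ppargc1a* was scarce, at 12.2 ± 5.95 in TM6 and 101.5 ± 7.81 in PKO-6, and rose in PKO-1 (1.27, adjusted p = 0.00321) and PKO-6 (3.04, adjusted p = 4.03e-07). *Esrra*, a nuclear receptor that works with both, rose in PKO-6 (0.94, adjusted p = 1.51e-05), and *Pprc1*, the remaining coactivator of the family, rose in rho0 (0.55, adjusted p = 8.6e-07). *Nrf1* and *Gabpb1*, which encode NRF1 and a subunit of GABP, were not called in any line, with log2 fold changes from -0.07 to 0.15. *Gabpa*, the DNA-binding subunit of GABP, rose in PKO-1 (0.54, adjusted p = 7.88e-05). These 3 were named after their values were seen.

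For comparison, 9 genes that do the same tasks in the nucleus (replicative polymerases, RPA, topoisomerase and RNase H2) gave 1 call lower in rho0, 2 in PKO-1 and 2 in PKO-6, near the 21.4%, 17.9% and 19.4% of all tested genes called lower. EdgeR and DESeq2 called 0 of them higher, with 3, 4 and 1 higher at an unadjusted p below 0.05. *Rpa2*, a subunit of the nuclear single-strand binding complex, fell in rho0 (-0.60, edgeR adjusted p = 1.12e-05) and PKO-1 (-0.77, adjusted p = 1.35e-06). *Rnaseh2b*, a subunit of RNase H2, fell in PKO-1 (-0.64, adjusted p = 2.15e-06) and PKO-6 (-0.995, adjusted p = 1.84e-08), and *Rpa1* fell in PKO-6 (-0.56, adjusted p = 1.9e-05). Their median log2 fold changes were -0.23, 0.16 and -0.26 in rho0, PKO-1 and PKO-6, and their difference from the 10 mitochondrial genes was not tested.

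Over the 12 libraries, the 10 genes did not follow a single pattern. On the log2 scale *Mgme1* and *Top1mt* were most alike (Pearson r = 0.929), *Rnaseh1* and *Tfb1m* had r = 0.887 and *Ssbp1* and *Tfb1m* r = 0.881, whereas *Ssbp1* and *Polrmt* ran opposite with r = -0.824. These are descriptions across 4 lines, which the libraries share in 3s, and carry no test. Among 11205 genes with at least 100 normalized counts, those most like *Rnaseh1* were *H2-Ke6* (r = 0.994) and *Ltbp4* (r = 0.992), and those most like *Tfb1m* were *Fancd2* (r = 0.985) and *Ccdc58* (r = 0.983). For *Ssbp1* they were *Uba3* (r = 0.987) and *Itsn2* (r = 0.984), and for *Mgme1* they were *Spata6* (r = 0.988) and *Ifrd1* (r = 0.986). *Top1mt* was most like *Sars* and *Sbk1* (r = 0.990 for both), and *Tfb2m* most like *Ift57* and *Cycs* (r = 0.986 for both).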

How the data were processed

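RNA from 3 cultures of each of 4 MEF lines was sequenced by the study from rRNA-depleted stranded libraries, made in technical duplicate and merged. Per the submitters' processing notes and the study's methods, the authors aligned reads to RefSeq transcripts of mm10 (GRCm38) with Bowtie2 and RSEM 1.2.25 and deposited a gene table of estimated counts (expected counts, not whole for 12.5% of values) and, per library, transcript tables with TPM values and the percent share of each isoform. Transcript sums and the gene table differed by at most 0.01 counts for the 10 genes.

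Estimated counts were rounded. edgeR 4.0.16 (R 4.3.3) was run with filterByExpr at a minimum count of 10, TMM scaling and a quasi-likelihood fit of the 4 lines, which share 1 estimate of spread (common biological coefficient of variation 0.0837), with Benjamini-Hochberg adjustment over 14026 genes. Normalized counts are counts scaled by the TMM library sizes. SE is the log2 fold change over the root of its F statistic. The fitting code was tested on simulated data. DESeq2 1.42.0, clone pooling, chromosome medians and other alternatives are given in the closing section. Log2 CPM, with a prior count of 2, served for likeness between genes.

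The 10 genes and all lists were chosen with earlier results of these data known. Named besides the 10 genes are *Pnpt1*, up to 4 genes of each list by the largest change among those called in any derived line, and the 2 most alike genes of each called gene. The cultures were not treated as paired by replicate number. Same-numbered libraries of different lines had deviations with r of -0.385 to 0.25 (median 0.124). For differently numbered libraries r ran from -0.415 to 0.49 (median -0.047). Libraries of a line differed by more than counting noise, so each was kept as 1 replicate. There were 0 per-sample columns that could not be mapped. Promoter letters are from RefSeq on GRCm38.p6.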

Additional observations from a re-analysis of the deposited data

Results flagged for a closer look

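*Top1mt* was singled out because lines with the same contrast against TM6 differed in a direct test of their difference. The log2 fold change of PKO-1 against PKO-6 was -0.71 (SE 0.064, edgeR adjusted p = 4.19e-07), with all 3 PKO-1 libraries below all 3 PKO-6 libraries. That of PKO-1 against rho0 was -0.54 (SE 0.064, edgeR adjusted p = 6.52e-06), again with no overlap. In the same comparisons 29.1% and 32.7% of all tested genes were called, so a difference of this kind was common. The cause was not tested, and each line is 1 clone.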

How the results depend on the processing

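With each line fitted on its own, as in the report, 4 of the 10 genes were called in rho0, PKO-1 and PKO-6 against TM6, 1 in PKO-1 against PKO-6, 1 in PKO-1 against rho0 and 0 in PKO-6 against rho0. With a threshold of 1 on the log2 scale the count was 0 in all 6 comparisons. With an adjusted p below 0.05 and no fold threshold it was 8, 8, 9, 8, 6 and 6. With PKO-1 and PKO-6 pooled it was 2 against TM6, *Rnaseh1* and *Tfb1m*, and 0 against rho0. With chromosome medians removed it was 3 in rho0 against TM6, *Mgme1*, *Ssbp1* and *Top1mt*, so that *Rnaseh1* and *Tfb1m* were lost there. It was 1 in PKO-1 against TM6, *Tfb1m*, 2 in PKO-6 against TM6 and 2 in PKO-1 against PKO-6, *Mgme1* and *Top1mt* in both. PKO-1 against PKO-6 also gave 2 with DESeq2 size factors, with the DESeq2 Wald test and with no filter on low counts. Leaving out 1 library at a time gave 4 to 5, 4 to 4, 3 to 5, 1 to 2, 0 to 2 and 0 to 0. The cultures were not treated as paired, and a fit with the replicate number as a block gave the same counts of 4, 4, 4, 1, 1 and 0.

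Signs changed only for values that were not called. With chromosome medians removed, *Tfam* in rho0 against TM6 was 0.14, *Top1mt* in PKO-1 against TM6 was 0.17, *Polrmt* in PKO-6 against TM6 was -0.0063, *Polg* and *Tfam* in PKO-1 against PKO-6 were -0.11 and 0.0305, and *Top1mt* and *Tfb2m* in PKO-6 against rho0 were -0.11 and -0.0468. With the clones pooled, *Top1mt* was 0.33 and *Polrmt* -0.10 against TM6, and *Polg2*, *Mgme1*, *Top1mt* and *Tfb1m* were 7e-04, -0.19, -0.14 and 0.022 against rho0. *Polrmt* in PKO-6 against TM6 was also -0.0081 with DESeq2 size factors, -0.008 with the DESeq2 Wald test, -0.0234 with only the compared lines fitted and -0.0268 with Rn45s left out. Without 1 library it ran from -0.0819 to 0.0795, *Polg* in PKO-1 against PKO-6 from -0.016 to 0.0741, *Polrmt* in PKO-1 against rho0 from -0.0232 to 0.0924 and *Mgme1* in PKO-6 against rho0 from -0.0151 to 0.0402. The cause was not tested. Over all values of the 10 genes, 1207 kept direction and side of the threshold, 47 gained a call, 28 lost one and 28 changed sign.

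The number of genes called over the whole table was 5902, 4810, 5799, 4087, 4590 and 3014, and 2944, 2274, 3038, 1950, 2202 and 1510 with a threshold of 1 on the log2 scale. It was 10088, 9038, 9829, 8611, 9252 and 7646 with an adjusted p below 0.05 and no fold threshold. With the clones pooled it was 3607 against TM6 and 1500 against rho0. *Polg2* had the fewest counts of the 10 genes, 99 to 224 per library, and counting error was not separated from the spread between cultures.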
